A study of Homo sapiens with 6 samples.

Results

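The genes examined here encode the receptors through which platelets and megakaryocytes sense ADP, ATP, adenosine, thrombin and thromboxane, together with ENTPD1, the gene of the ectonucleotidase CD39. They are the 10 genes P2RY1, P2RY11, P2RX1, P2RX4, P2RX7, ADORA2A, ENTPD1, F2R, F2RL3 and TBXA2R, found by symbol among the 58735 genes of the deposited count table. Of these 10, 9 had at least 10 counts in at least 3 libraries and were tested. ADORA2A had too few reads. RNA came from Meg-01 cells, an established megakaryoblastic line derived from a leukaemia, in 3 libraries of untreated control cells and 3 libraries of cells treated with 500 µM sodium propionate (C3) for 48 h according to the sample labels. No time is labelled for the control libraries, and the methods of the study name incubations of both 24 h and 48 h. The study calls its libraries technical replicates, so p-values measure the spread between these libraries, which need not include the variation between cultures of this single line.

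Nucleotides and thrombin act on platelets through a small set of surface proteins. ADP acts on the G protein-coupled receptors P2Y1 and P2Y12, and ATP opens the P2X ion channels. Thrombin cuts the protease-activated receptors PAR1 and PAR4, encoded by F2R and F2RL3, and thromboxane A2 acts on the receptor encoded by TBXA2R. CD39 removes ATP and ADP from the cell surface, and the adenosine that other enzymes then form acts on the receptor encoded by ADORA2A. Megakaryocytes make the mRNA and much of the protein that platelets later carry. The study measured the aggregation of mouse platelets in response to ADP and collagen and compared gene expression in Meg-01 cells with and without C3.

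The libraries held between 16159449 and 22821722 counts, of which the 10 genes took 0.049% to 0.0528%. The reads were counted per gene without normalization by the authors, and TMM-normalized counts are used below. Of 15078 tested genes, 1658 were higher and 1323 lower after C3 treatment (quasi-likelihood test of edgeR, adjusted p-value below 0.05). The higher genes made up 55.6% of those called, 79.2% when libraries were scaled by their size alone, 48.8% with DESeq2 (1129 higher, 1186 lower) and 49.6% without C3 replicate 1. Of 17 megakaryocyte markers, ITGA2B, the gene of the fibrinogen receptor chain αIIb, was abundant (normalized counts 12902 ± 390 without and 12377 ± 878 with C3; SD, n = 3 per group). PF4 and GP1BB, also defining markers of the lineage, were at 0 in every library. Among the other markers of this lineage, GP1BA and NFE2 fell by 0.49 and 0.38 and ITGB3 and MMRN1 rose by 0.34 and 0.25 on the log2 scale (edgeR, adjusted p-values of 0.0344 or less). The summed level of the 17 markers was 35420 to 36990 in control and 33710 to 35940 in C3 libraries. The summed level of 8 erythroid markers was 672.3 to 712.2 in control and 784.8 to 834.3 in C3 libraries, of which EPOR and ALAS2 rose and HBA2 fell. The summed level of 8 monocyte and granulocyte markers was 900.3 to 955.1 and 729.3 to 752.0, with CD14 at 1 to 6 counts, FCGR3A at 0 in every library and LYZ, the most abundant, lower after C3 treatment by a log2 fold change of -0.51. The T and B cell markers (101.8 to 124.2 and 99.59 to 135.4) and the stromal and epithelial markers (197.9 to 255.6 and 230.6 to 259.5) overlapped between the groups, although COL1A1 rose from 4.52 ± 1.87 to 16.9 ± 8.56 normalized counts (SD, n = 3 each). The part of these shifts in the results below was not tested. In bulk RNA, fewer cells of a type and less RNA per cell cannot be told apart.

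Of the 9 tested genes, P2RX7 was higher after C3 treatment, whereas P2RX1 and TBXA2R were lower. The remaining 6 did not reach an adjusted p-value of 0.05 in edgeR's test. Over all tested genes, 11.0% were higher and 8.77% lower by this threshold, or 19.8% in either direction. By the stricter gates of the study, which ask for an adjusted p-value under 0.01 together with a change of more than 1.3-fold, P2RX7 and P2RX1 passed in edgeR's test. P2RX7 was past the gate of 0.01 by a narrow margin and did not pass it with DESeq2, the tool of the study (adjusted p-value 0.0388), with RLE factors (0.0102), with limma-voom (0.0108) or with any library left out (0.0163 to 0.0583). It passed with library size alone (0.00673), without a count filter (0.00412) and with a replicate block (0.00644). P2RX1 was below the fold gate of 1.3 with library size alone (log2 fold change -0.34), without control replicate 2 (-0.35) and without C3 replicate 3 (-0.37). These gates were passed by 5.05% of all tested genes as higher and by 1.47% as lower, or 6.52% in either direction. For 3 of the 9 tested genes every C3 library exceeded every control library, for 4 every C3 library was lower, and such separation in either direction was seen in 34.4% of all tested genes.

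**Figure D1:**
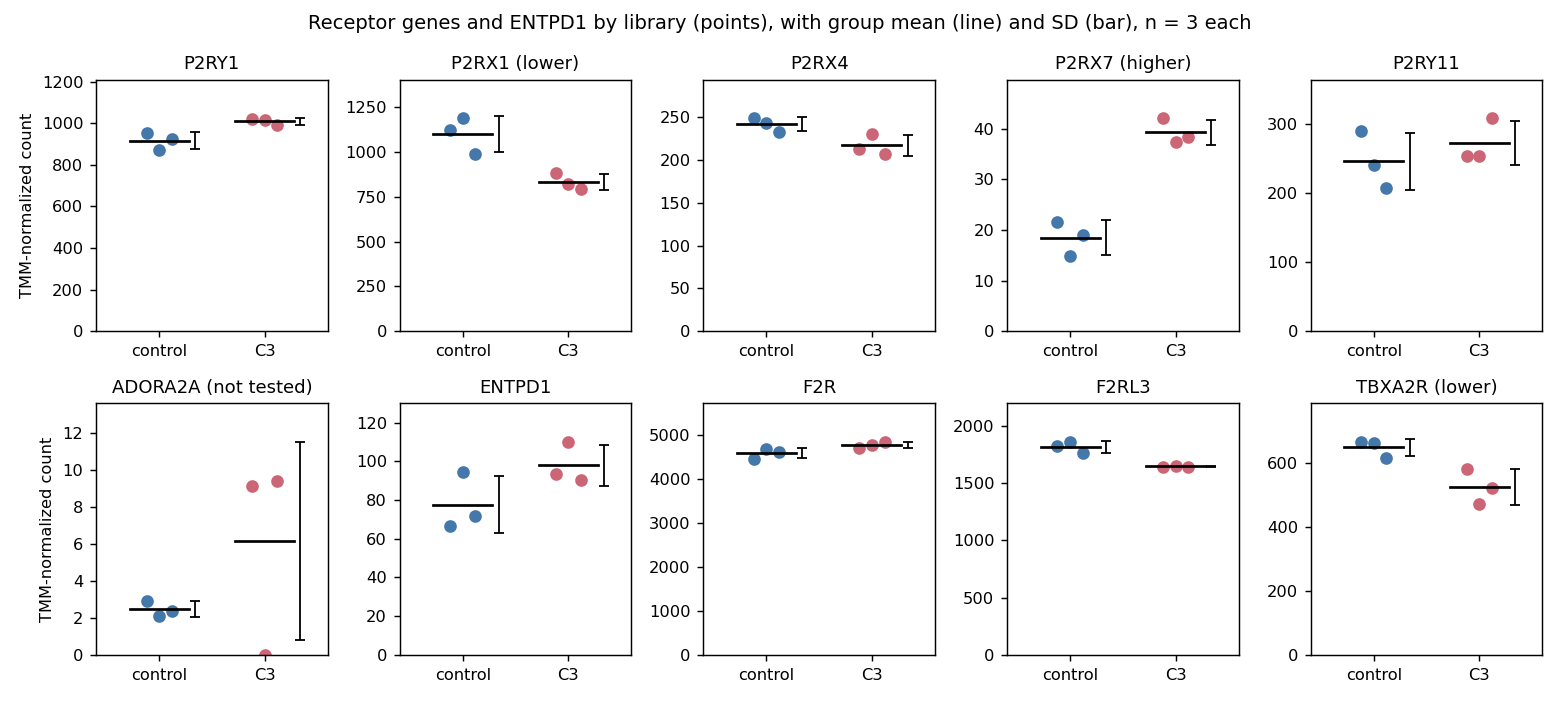
TMM-normalized counts (y axes from 0, a scale of its own for each gene) of the 10 genes in the 3 control and 3 C3 libraries. Points are libraries, horizontal lines group means and bars the SD; the groups of P2RX1, P2RX7 and TBXA2R are separate and called, whereas those of P2RY11, ADORA2A and ENTPD1 overlap.

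P2RY1 (ENSG00000169860) encodes the Gq-coupled ADP receptor and consists of 1 exon block on chromosome 3 (GRCh38, forward strand, 152835131 to 152841439). Its normalized counts were 951, 872 and 924 in the control libraries and 1019.8, 1015 and 990.4 in the C3 libraries. The groups were separate, with C3 higher, although C3 replicate 3 was close to control replicate 1. The group means were 916 ± 40.4 and 1009 ± 15.8 (SD, n = 3 each). The difference did not pass the test (log2 fold change 0.14, standard error 0.068, 95% interval -0.00138 to 0.278, edgeR adjusted p-value 0.16). The exact two-sided permutation test gave 0.1, the smallest p-value that 3 against 3 libraries allow. When libraries were scaled by their size alone, the log2 fold change of P2RY1 was 0.21 with an adjusted p-value of 0.0356, the lowest over 13 alternatives, which otherwise ranged up to 0.465.

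P2RX1 (ENSG00000108405) encodes the ATP-gated cation channel P2X1, the main P2X channel of platelets. It is located on chromosome 17 (reverse strand, 3896592 to 3916476), in 12 exon blocks that no other annotated gene shares. Its normalized counts were 1122, 1189 and 991 in the control libraries and 879.8, 821 and 793 in the C3 libraries. The highest C3 library was thus below the lowest control library, control replicate 3. The mean fell from 1100.5 ± 101 to 831 ± 44.4 (SD, n = 3 each), a log2 fold change of -0.41 (standard error 0.075, 95% interval -0.563 to -0.255) with an edgeR adjusted p-value of 3.29e-04. The exact permutation p-value was 0.1. P2RX1 remained lower at an adjusted p-value of 0.00728 or less in all 13 alternatives, with log2 fold changes between -0.48 and -0.34.

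The raw counts of the ADP receptor gene and of this ATP channel gene were also compared within each library, which removes the scaling between libraries. The log2 ratio of P2RY1 to P2RX1 counts was -0.24, -0.45 and -0.10 in the control libraries and 0.21, 0.31 and 0.32 in the C3 libraries. In every control library P2RX1 had more raw counts than P2RY1, and in every C3 library it had fewer. These counts are not corrected for exon length. Per kilobase of merged exons, P2RX1 lay above P2RY1 in every library (means 279 and 145 in control, 211 and 159.9 in C3 libraries). The mean ratio was -0.26 ± 0.17 without and 0.28 ± 0.059 with C3 (SD, n = 3 per group). For the difference of 0.54 the exact permutation p-value was 0.1, also after adjustment over the 3 ratios examined.

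P2RX4 and P2RX7 encode further ATP-gated channels, of which P2X7 opens only at high ATP concentrations and is best known from macrophages. Both genes are on chromosome 12 (forward strand), P2RX7 (ENSG00000089041) from 121132819 to 121188032 and P2RX4 (ENSG00000135124) from 121210065 to 121234106. P2RX7 had few reads, with raw counts of 22, 14 and 16 in the control libraries and 37, 39 and 49 in the C3 libraries. Its normalized counts were 21.6, 14.8 and 19.1, and 42.1, 37.3 and 38.4, so that the lowest C3 library lay well above the highest control library. The mean rose from 18.5 ± 3.39 to 39.3 ± 2.51 (SD, n = 3 each), a log2 fold change of 1.07 (standard error 0.29, 95% interval 0.475 to 1.67) or a fold of 2.11. The adjusted p-value of P2RX7 was 0.00994 (edgeR), at the edge of the study's gate of 0.01. The exact permutation p-value was 0.1. Without control replicate 2, the library with the lowest value, the log2 fold change was 0.94 and the adjusted p-value 0.0583. The antisense transcript ENSG00000286248, not a row of the count table, covers 33% of the exon bases of P2RX7. Since the strand setting of the counting is not given in the sources used here, reads of both strands cannot be told apart.

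For P2RX4 the normalized counts were 249, 243 and 233 in the control libraries and 213, 231 and 207 in the C3 libraries. The groups did not overlap, although control replicate 3 and C3 replicate 2 were nearly equal. The log2 fold change of P2RX4 was -0.16 (standard error 0.11, 95% interval -0.38 to 0.065), which did not pass the test (adjusted p-value 0.337, exact permutation p-value 0.1). Within libraries, the log2 ratio of P2RX4 to P2RX7 counts was 3.53, 4.03 and 3.61 in control cells and 2.34, 2.63 and 2.43 after C3 treatment. The ratio was lower in every C3 library, by 1.26 on average (control 3.72 ± 0.27, C3 2.46 ± 0.15; SD, n = 3 each), with an exact permutation p-value of 0.1.

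**Figure D2:**
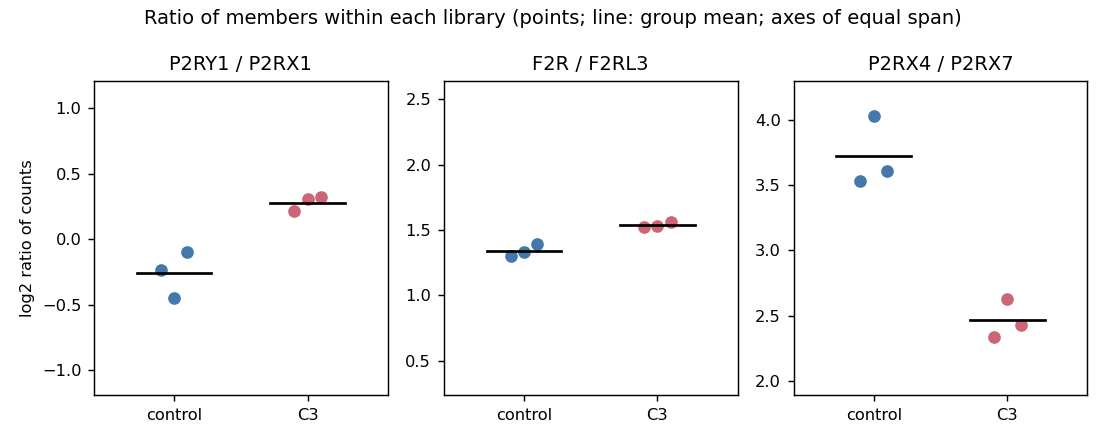
Log2 ratio of the raw counts of 2 genes within each library (y axes, equal span of log2 units), for P2RY1 to P2RX1, F2R to F2RL3 and P2RX4 to P2RX7. Points are the 3 control and 3 C3 libraries and lines the group means; the groups are separate in all 3 panels, with differences of 0.54, 0.20 and -1.26.

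The sequences before the starts of P2RX7 (GC content 56%), TBXA2R (74.4%) and the uncalled P2RY1 (74%) are shown. They come from the RefSeq promoter table (GRCh38.p14), which matched 7 of the 10 genes. P2RX1, ADORA2A and F2R had no entry. Each is given 5′ to 3′ on the strand of the gene and stops before the first base of the gene in both annotations. Capitals mark matches, on either strand, to GATAA (the GATA core), GGAAG (the ETS core), GGGCGG (the GC box) and TGTGGT (the RUNX core), and no match overlapped another.
P2RX7, chr12:121132626-121132818, forward strand: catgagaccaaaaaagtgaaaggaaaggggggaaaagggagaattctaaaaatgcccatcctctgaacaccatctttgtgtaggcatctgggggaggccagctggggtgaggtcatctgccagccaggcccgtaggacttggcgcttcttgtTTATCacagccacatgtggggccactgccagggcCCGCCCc
TBXA2R, chr19:3606876-3607125, reverse strand: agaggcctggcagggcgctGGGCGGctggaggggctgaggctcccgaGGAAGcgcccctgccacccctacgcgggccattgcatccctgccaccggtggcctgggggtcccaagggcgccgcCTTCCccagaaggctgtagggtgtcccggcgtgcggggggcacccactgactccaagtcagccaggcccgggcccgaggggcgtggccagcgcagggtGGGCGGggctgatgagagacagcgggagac
P2RY1, chr3:152834881-152835130, forward strand: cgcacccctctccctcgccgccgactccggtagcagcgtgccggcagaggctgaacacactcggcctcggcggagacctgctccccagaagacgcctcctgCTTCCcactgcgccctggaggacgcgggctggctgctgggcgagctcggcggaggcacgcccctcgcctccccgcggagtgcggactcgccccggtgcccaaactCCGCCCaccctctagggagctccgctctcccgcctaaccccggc

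In the full windows of 300 bases, 250 before and 50 after the RefSeq start, P2RX7 had a GC content of 53.3% and 4 CpG dinucleotides. P2RY1 had 72.7% and 32, and TBXA2R 74.7% and 24, against medians of 58.7% and 14 over 35116 windows. P2RX4, 22032 bases from P2RX7, had 76.0% and 33. The uncalled P2RY11 had 62.7% and 7, and F2RL3 67.3% and 11. The windows of the uncalled ENTPD1 had 43.0% to 62.7% and 2 to 29. The P2RX7 stretch held 1 GATA match 41 bases and 1 GC box 7 bases before the start of the gene model. The TBXA2R stretch held 2 GC boxes and 2 ETS matches, and that of P2RY1 1 of each. In the full windows, which include the first bases of the gene, P2RX7 had 1 GATA, 1 ETS and 1 GC box match, TBXA2R had 2 ETS and 2 GC box matches, and P2RY1 had 2 ETS and 1 GC box match. Of the other uncalled genes, P2RX4 had 1 ETS and 4 GC box matches, P2RY11 had 1 ETS match and F2RL3 had 2. The windows of ENTPD1 held 1 to 2 ETS matches, and some also held 1 GATA match or 1 to 2 RUNX matches. Of all windows of 300 bases, 22.7% held the GATA letters, 71.9% the ETS, 45.0% the GC box and 13.1% the RUNX letters. These matches describe letters and are not measured binding sites.

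P2RY11 (ENSG00000244165) encodes a receptor for ATP and is located on chromosome 19 (forward strand, 10111693 to 10115372). P2RY11 had normalized counts of 290, 241 and 208 in the control libraries and 254, 255 and 309 in the C3 libraries. The groups overlapped, and the log2 fold change of 0.15 (standard error 0.12, 95% interval -0.100 to 0.394) did not pass the test (adjusted p-value 0.435). The genes PPAN and PPAN-P2RY11 share 55.9% of the exon bases of P2RY11 on the same strand, and EIF3G shares 5.42% on the other. The read-through gene PPAN-P2RY11 was at 0 in every library. The level of P2RY11 is uncertain for this overlap.

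ENTPD1 (ENSG00000138185), on chromosome 10 (forward strand, 95711779 to 95877266), was at normalized counts of 66.6, 94.4 and 71.6 in the control libraries and 93.3, 110 and 90.2 in the C3 libraries. Control replicate 2 reached the level of the C3 libraries. The means were 77.5 ± 14.8 and 97.9 ± 10.7 (SD, n = 3 each), and the log2 fold change of 0.33 (standard error 0.18, 95% interval -0.025 to 0.693) did not pass the test (adjusted p-value 0.19). ENTPD1-AS1, on the other strand, covers 40.0% of the exon bases of ENTPD1 and had more counts, 179 ± 14.1 against 199 ± 17.1 with C3. ADORA2A (ENSG00000128271), on chromosome 22 (forward strand, 24417879 to 24442357), encodes the adenosine receptor that raises cyclic AMP in platelets. It had raw counts of 3, 2 and 2 in control and of 8, 0 and 12 in C3 libraries. A count of 0 allows up to 3 counts, or a normalized count of 2.87 in C3 replicate 2, and no change of ADORA2A was detectable at this depth. The read-through gene SPECC1L-ADORA2A, which shares 56.8% of its exon bases, had 1 count over the 6 libraries.

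F2R (ENSG00000181104) encodes PAR1, the thrombin receptor of higher affinity on human platelets, and is located on chromosome 5 (forward strand, 76716126 to 76735770). In the order of the libraries, its counts after normalization were 4470.0, 4682 and 4627 in the control libraries and 4718, 4790.0 and 4851 in the C3 libraries. The C3 group was higher by a small margin without overlap, with means of 4593 ± 110 and 4786 ± 66.8 (SD, n = 3 each). The log2 fold change of F2R was 0.060 (standard error 0.060, 95% interval -0.063 to 0.183), which did not pass the test (adjusted p-value 0.535). F2RL3 (ENSG00000127533) encodes PAR4, the thrombin receptor that responds to higher thrombin concentrations, and is located on chromosome 19 (forward strand, 16888999 to 16892606). F2RL3 had normalized counts of 1821, 1862 and 1764 in the control libraries and 1646, 1655 and 1639.8 in the C3 libraries. The groups did not overlap and the C3 libraries were nearly equal, with an SD of 7.53 against 49.5 in control cells (n = 3 each). The log2 fold change of F2RL3 was -0.14 (standard error 0.062, 95% interval -0.268 to -0.015), with an unadjusted p-value of 0.0300 and an adjusted one of 0.109 (edgeR).

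The thrombin receptor genes were compared within libraries. The log2 ratio of F2R to F2RL3 counts was 1.3, 1.33 and 1.39 in the control libraries and 1.52, 1.53 and 1.56 in the C3 libraries, so that every C3 library had a higher ratio. The means were 1.34 ± 0.049 and 1.54 ± 0.023 (SD, n = 3 each), and the difference of 0.20 had an exact permutation p-value of 0.1. F2R took 46.3% to 48.9% of the counts of the 10 genes in control libraries and 49.9% to 51.3% in C3 libraries.

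TBXA2R (ENSG00000006638), the thromboxane A2 receptor gene, is located on chromosome 19 (reverse strand, 3594507 to 3606875) and shares no exon bases with another gene. Its normalized counts were 665, 662 and 616 in the control libraries and 582, 469.9 and 519.9 in the C3 libraries. C3 replicate 1 came closest to the controls and C3 replicate 2 was the lowest. The mean fell from 648 ± 27.4 to 524 ± 55.9 (SD, n = 3 each), a log2 fold change of -0.31 (standard error 0.083, 95% interval -0.482 to -0.140) with an edgeR adjusted p-value of 0.00916. The exact permutation p-value was 0.1. The fold of 0.806 did not pass the study's fold change gate. TBXA2R was not called without control replicate 1 (log2 fold change -0.28, adjusted p-value 0.0544) or without C3 replicate 2 (-0.24 and 0.0750).

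**Figure D3:**
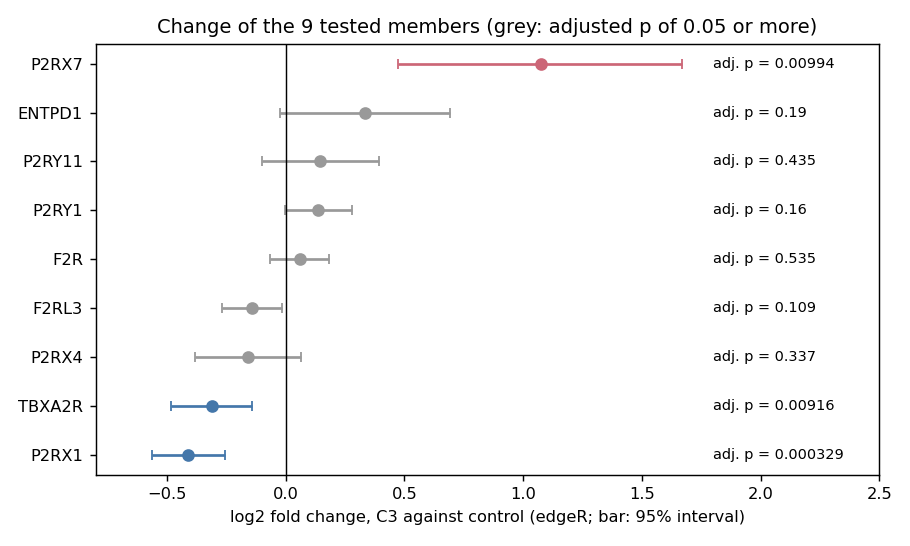
Log2 fold change of the 9 tested genes after C3 treatment (x axis; points, edgeR; bars, 95% interval; 3 control and 3 C3 libraries), with the adjusted p-value at the right. P2RX7 lies at 1.07 with the widest interval, P2RX1 at -0.41 and TBXA2R at -0.31, and the 6 genes in grey did not pass the threshold.

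Levels of different genes were compared as normalized counts per kilobase of merged exons. F2R had the highest level, 1156 ± 27.7 without and 1205 ± 16.8 with C3 (SD, n = 3 per group), followed by F2RL3 with 545 ± 14.8 and 494 ± 2.26. P2RX1 (279 ± 25.5 and 211 ± 11.2) and TBXA2R (229 ± 9.68 and 185 ± 19.8) came next, above P2RY1 with 145 ± 6.41 and 159.9 ± 2.51. P2RY11 had 115 ± 19.3 and 127 ± 14.8, and P2RX4 30.4 ± 1.02 and 27.3 ± 1.55. The lowest were ENTPD1 (5.41 ± 1.03 and 6.82 ± 0.745), P2RX7 (3.34 ± 0.612 and 7.08 ± 0.452) and ADORA2A (0.593 ± 0.0996 and 1.47 ± 1.28). Each gene lay above the next in all 6 libraries except ENTPD1, which lay above P2RX7 in 4. The levels of P2RX7, P2RY11, ADORA2A and ENTPD1 are uncertain, since other genes share some of their exon bases.

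Of 13 other receptors for nucleotides and adenosine, 6 were tested, and P2RY14 was lower (16.7% called). P2RY14 encodes a receptor for UDP-sugars. Its normalized counts were 44.1, 63.6 and 46.6 in the control libraries and 20.5, 24.9 and 14.1 in the C3 libraries, with no overlap. The log2 fold change of P2RY14 was -1.39 (standard error 0.28, adjusted p-value 9.97e-04 from edgeR's test). P2RY12, the gene of the Gi-coupled ADP receptor of platelets, was at 0 counts in the control libraries and at 1, 2 and 3 counts in the C3 libraries. P2RX2, P2RX3, P2RX6, P2RY4, P2RY13 and ADORA1 were also below the filter.

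Of 27 genes for nucleotide release, breakdown and uptake, 18 were tested, 2 were higher and 1 lower (16.7% called). DPP4, which binds adenosine deaminase at the cell surface, rose by 1.16 on the log2 scale (edgeR, adjusted p-value 8.18e-05), and the phosphatase gene ALPL by 0.94 (0.0161). SLC29A3, a nucleoside transporter gene, fell by 0.39 (0.00967). NT5E, the gene of the ectonucleotidase CD73 that acts after CD39, had 3 to 11 counts and was not tested. Of 12 other protease-activated, thrombin-binding and prostanoid receptors, 8 were tested, 2 were higher and 1 lower (37.5% called). PROCR, the endothelial protein C receptor gene, had normalized counts of 356, 379 and 355 in control and of 612, 576 and 565 in C3 libraries, a log2 fold change of 0.69 (standard error 0.083). THBD, which encodes the thrombin-binding thrombomodulin, rose by 0.44 (adjusted p-value 0.0196) and PTGDR2, a prostaglandin D2 receptor gene, fell by 0.63 (0.00604). F2RL1 and F2RL2, the genes of PAR2 and PAR3, had log2 fold changes of 0.19 and 0.11 that did not pass the test. PTGER1, PTGER2, PTGDR and PTGFR, further prostanoid receptor genes, were below the count filter.

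Downstream of these receptors, 23 of 26 G protein subunit genes were tested, of which 5 were higher and 1 lower (26.1% called). GNAI1 (0.52), GNAO1 (1.1), GNG11 (0.39) and GNG12 (0.53, all log2 fold changes) had the smallest p-values. The 1 lower gene was GNAI2 (-0.20, edgeR adjusted p-value 0.0406), whose groups overlapped. Its mean normalized count was 8122.6 without and 7068.5 with C3, against 514 and 737 for GNAI1. GNAQ, whose product couples to P2Y1, PAR and thromboxane receptors, and GNA13, whose product couples to PAR and thromboxane receptors, had log2 fold changes of -0.053 and -0.026 and did not pass the test. Among 31 tested effector genes, 11 were higher and 2 lower (41.9% called, against 19.8% of all tested genes). The count of higher effector genes was 6 with DESeq2, 3 without C3 replicate 3, 6 without control replicate 2 and 7 without control replicate 3 or C3 replicate 2. ITPR3 (0.62) and ITPR2 (0.48), genes of the IP3 receptors that release calcium, and PRKCB (0.30), a protein kinase C gene, had the smallest p-values of this list. The 2 lower effector genes were PRKCQ, another protein kinase C gene, and ORAI1. Their log2 fold changes were -0.28 and -0.25 (edgeR adjusted p-values 0.0122 and 0.00916). Among 21 tested genes of RGS proteins, receptor kinases and arrestins, which end G protein signals, 4 were higher and 3 lower (33.3% called). RGS9 rose from 30.2 ± 3.84 to 102 ± 6.73 normalized counts (SD, n = 3 each), a log2 fold change of 1.75. RGS16 rose by 0.52 and RGS19 and GRK2 fell by 0.44 and 0.24 on the log2 scale. The median change, in log2 units, was 0.054 for the G protein, 0.068 for the effector and 0.086 for the signal terminator list, against 0.0021 over all tested genes. It was -0.17, -0.0087 and 0.15 for the other nucleotide receptors, the nucleotide enzymes and transporters, and the other thrombin and prostanoid receptors. The 9 tested members had a median of 0.060.

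**Figure D4:**
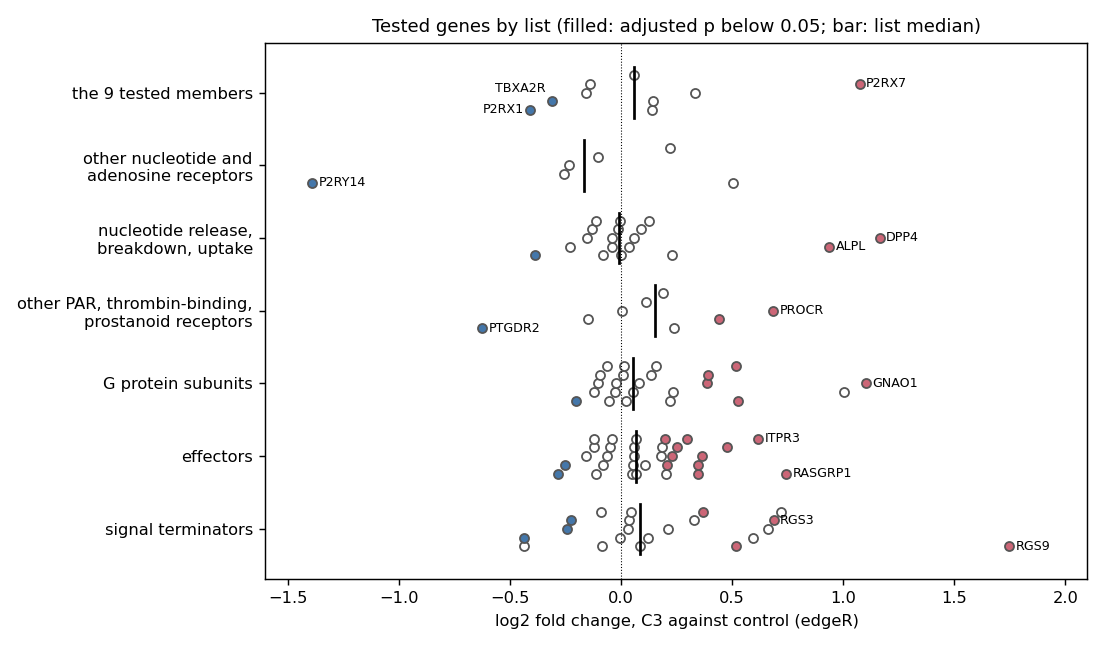
Log2 fold change after C3 treatment (x axis, edgeR) of the tested genes of 7 lists, each point a gene. Filled points have an adjusted p-value below 0.05 and vertical bars mark list medians; of the filled points, P2RX7, DPP4, GNAO1 and RGS9 lie above 1 and P2RY14 below -1.

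The genes most like P2RX1 over the 6 libraries were named by the smallest root mean square difference of mean-centred log2 counts, among the 11851 tested genes averaging at least 50 normalized counts. They were CDKN2C (difference 0.0364, log2 fold change -0.45), LINC00689 (0.0381 and -0.41) and MAZ (0.0427 and -0.40). This is a description of 6 libraries in 2 groups.

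**Figure D5:**
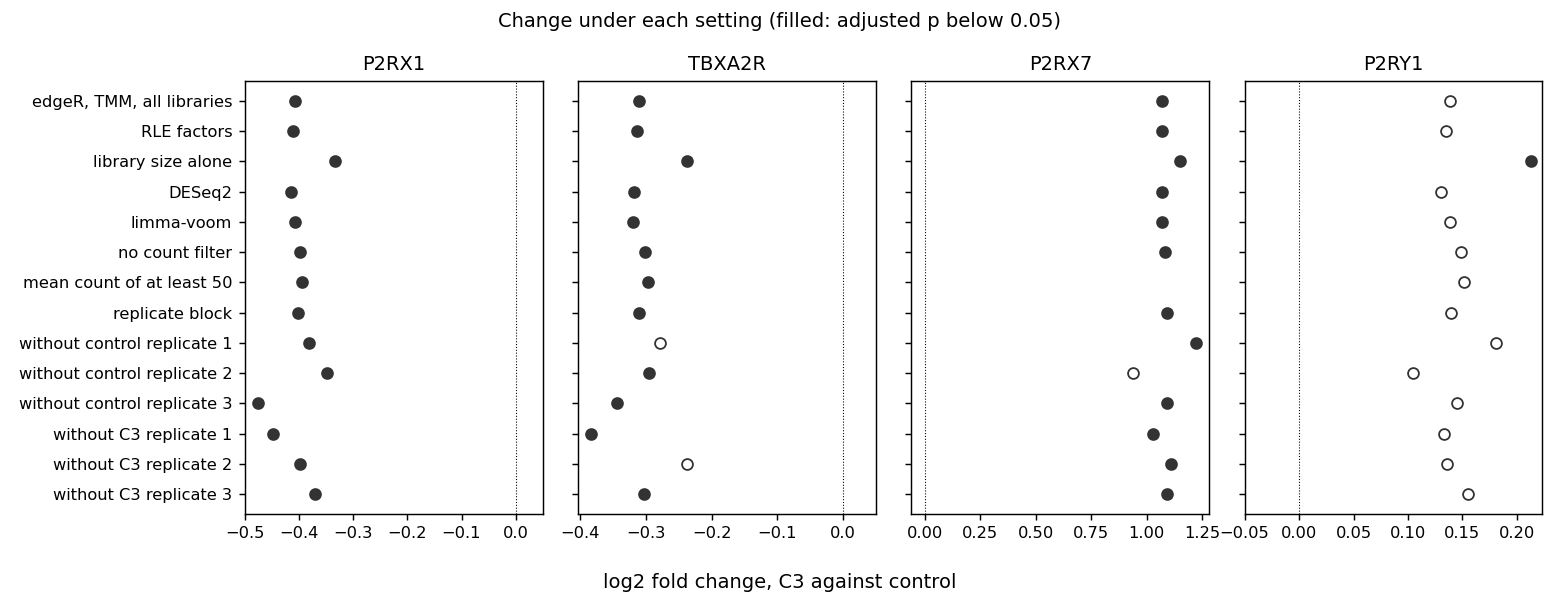
Log2 fold change (x axis, a scale of its own for each gene) of P2RX1, TBXA2R, P2RX7 and P2RY1 under each processing setting (y axis). Filled points have an adjusted p-value below 0.05; P2RX1 is filled throughout, TBXA2R is open without control replicate 1 or C3 replicate 2, P2RX7 is open without control replicate 2 and has no value at a mean count of at least 50, and P2RY1 is filled with library size alone.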

How the data were processed

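Per the submitters' processing notes, the authors used fastp, STAR 2.6.1d and featureCounts 1.5.0-p3 with GRCh38/hg38. The authors deposited unnormalized whole-number read counts for each gene, in 1 column per library, and columns were assigned to samples by name. Strand mode and annotation version were not given in the sources used here.

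Genes reaching 10 counts in 3 or more libraries entered edgeR 4.0.16 (R 4.3.3, quasi-likelihood test, TMM factors, Benjamini-Hochberg adjustment over all tested genes, no replicate block) and were called at an adjusted p-value below 0.05. For normalized counts, each count was divided by its TMM-scaled library size and then brought to the average such size. Each standard error was derived from the fold change and its F statistic. Single genes and ratios had exact two-sided permutation tests. Symbols, coordinates and exon lengths came from GENCODE 44 (GRCh38), which gave a symbol to 58207 of 58735 identifiers. Libraries of the same group were no copies of each other, with a chi-square of 2.42 or more per degree of freedom. Floors cover counting error only. The fit was tested on simulated data with known changes.

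The members and the lists were chosen with earlier results of these data known, and no test over a list was made. All 10 members are named. From the other lists the genes with an adjusted p-value below 0.05 are named, at most 4 each by p-value. Also named are receptors of the same families that were not tested and the 3 genes most like the called member with the smallest p-value. Genes that overlap a member are described as well, except ADORA2A-AS1, ENSG00000240527, ENSG00000270099 and ENSG00000225407. The result of 1 effector gene that this rule names is not reported here. F2RL1, F2RL2, GNAQ, GNA13, GNAI2, PRKCQ, ORAI1, ITGA2B, PF4, GP1BB, CD14, FCGR3A and NT5E are named outside this rule, after their values were seen. So are the uncalled genes beside a member (CACTIN, CAMKK1, CAMKK2, CPAMD8, SIN3B and SPECC1L). The alternatives were RLE factors, library size alone, DESeq2 1.42.0, limma-voom (limma 3.58.1), 2 other count filters, a replicate block, each library left out and the gates of the study, and a pseudocount of 0.5 for the ratios.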

Additional observations from a re-analysis of the deposited data

How the results depend on the processing

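P2RX1 kept its direction and call in all 13 alternatives, and P2RX4, P2RY11, ENTPD1, F2R and F2RL3 stayed uncalled with the same direction in all 13. TBXA2R lost its call in 2 alternatives, P2RX7 in 1 of 12 and P2RY1 gained one in 1. P2RX7 could not be tested at a mean count of at least 50. With each library left out, the log2 ratio of P2RY1 to P2RX1 differed between the groups by 0.45 to 0.62, that of F2R to F2RL3 by 0.18 to 0.23 and that of P2RX4 to P2RX7 by -1.35 to -1.1 (a pseudocount of 0.5 gave -1.23). With each library left out, 0 to 1 members were higher and 1 to 2 lower, and 1053 to 1860 genes were higher and 591 to 1891 lower over all genes.

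Library size alone, which moved the median log2 fold change of all genes from 0.0021 to 0.076, gave 609 lower genes, 2 higher members, and 0 lower genes among G protein subunits and among effectors. The study's gates gave 761 higher and 222 lower genes and 1 lower member. At a mean count of at least 50 there were 0 higher members, 0 lower other nucleotide receptors, 1 higher gene of nucleotide release, breakdown and uptake and 0 lower G protein subunits. DESeq2 gave 1 higher gene of nucleotide release, breakdown and uptake, 1 higher other thrombin or prostanoid receptor and 6 higher effectors. RLE factors gave 2 lower other nucleotide receptors. With each library left out, 1 to 3 other nucleotide receptors were lower. Of the nucleotide release, breakdown and uptake genes, 1 to 3 were higher and 0 to 2 lower. Of the other thrombin and prostanoid receptors, 1 to 2 were higher and 0 to 1 lower. Of the G protein subunits, 0 to 3 were lower, of the effectors 3 to 10 were higher and 1 to 2 lower, and of the signal terminators 2 to 4 were higher and 1 to 4 lower. The cause was not tested, except that fewer genes or libraries enter some alternatives.

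The replicate numbers are not stated to pair the libraries, and deviations of same-numbered libraries correlated at 0.0209, -0.0468 and 0.0296. Not every library correlated best with its own number. With the replicate block, 1852 genes were higher and 1550 lower, 1 member was higher and 2 lower, and 2 other nucleotide receptors were lower. Depth limits P2RX7 and ADORA2A most, with 52 and 7 control counts in all.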

Other observations

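The genes beside the members were measured in the same fit. GIPC3, which ends 965 bases from TBXA2R on chromosome 19, had normalized counts of 315, 340.4 and 315 in the control libraries and of 470.1, 463 and 456 in the C3 libraries. It rose by 0.52 on the log2 scale (standard error 0.087, edgeR adjusted p-value 1.36e-04), beside a log2 fold change of -0.31 for TBXA2R. CACTIN, on the other side of TBXA2R at a distance of 3769 bases, had a log2 fold change of -0.0032 (adjusted p-value 0.988). CAMKK1, 1700 bases from P2RX1, had one of 0.18 (adjusted p-value 0.166), beside -0.41 for P2RX1. CAMKK2, 3568 bases from P2RX4, had one of -0.13 (adjusted p-value 0.168), beside -0.16 for P2RX4. PPAN, whose exons overlap those of P2RY11, had one of 0.12 (adjusted p-value 0.504), beside 0.15 for P2RY11. EIF3G, which overlaps P2RY11 on the other strand, had one of -0.059 (adjusted p-value 0.579). CPAMD8, 344 bases from F2RL3, and SIN3B, 8645 bases from it, had -0.047 and -0.0019 (adjusted p-values 0.812 and 0.989), beside -0.14 for F2RL3. SPECC1L, 139 bases from ADORA2A, had 0.0045 (adjusted p-value 0.979). Of the 12 tested genes of this locus list, GIPC3 was called.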
